A study of Nasonia vitripennis with 51 samples.

Results

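CpG methylation was compared between heads of female Nasonia vitripennis, a parasitoid wasp, fed 5-aza-2'-deoxycytidine (5-aza-dC) for 24 h and heads of females fed sucrose alone. The heads were selected by the tissue and feeding regime in the sample labels, which gave 16 of the 51 samples of the series. The tested regime was 10 µM 5-aza-dC in 20% sucrose for 24 h, with 3 heads samples harvested at 0 h, 2 at 24 h and 2 at 48 h after feeding ended (n = 7). The control regime was 20% sucrose for 24 h, with 3 heads samples at each of the same harvest times (n = 9). Every sample was a pool from 10 females of AsymC, a wild-type strain cured of the bacterium Wolbachia, so no value belongs to a single wasp. The study asked whether exposure to 5-aza-dC changes DNA methylation across the genome. Whole-genome bisulphite sequencing was used, in which unmethylated cytosines are read as thymine and methylated cytosines as cytosine, so that the share of cytosine reads at a CpG is its methylation level.

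DNA methylation in insects is found mainly at CpGs within the bodies of a subset of genes, and most other CpGs carry little of it. Dnmt1 is known mainly for copying methylation onto newly made DNA, and Dnmt3 for adding it to unmethylated DNA. 5-aza-dC is a cytidine analogue that is built into DNA as it is copied, where it traps these enzymes, and it is known chiefly as an agent that lowers methylation in dividing cells.

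The table listed 4150376 CpGs, of which 3362932 (81.03%) had reads in all 16 heads, and each of these had at least 3 reads in every head. Mean coverage was 27.9 ± 17.9 reads per CpG (SD, n = 7) in 24 h 5-aza-dC heads and 23.4 ± 3.72 (n = 9) in sucrose heads. Read counts summed over these 3362932 CpGs ranged between 17606764 and 197401928 in 24 h 5-aza-dC heads, and between 62277017 and 97931330 in sucrose heads. A read that covers several CpGs counts at each of them in these sums. A pair of the 24 h 5-aza-dC heads stood apart as shallow, replicate 1 of the 0 h harvest at 9.48 reads per CpG and replicate 1 of the 48 h harvest at 5.24. In the second of these, 94.2% of the tested CpGs had fewer than 10 reads, so that a single read often moved a level by more than 10 percentage points (points, below). The deepest were replicate 2 of the 0 h harvest at 58.7 reads and replicate 2 of the 48 h harvest at 38.0. The labels call the samples biological replicates without saying whether pools were reared or fed together, so p-values measure only the spread between these pools.

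Average methylation was slightly higher in 24 h 5-aza-dC heads than in sucrose heads in every one of 6 classes of CpG, from nearly unmethylated to nearly fully methylated. CpGs were classed by the mean proportion over both regimes, and the difference, averaged over harvest times, was set against an exact two-sided permutation test with labels exchanged within harvest time, whose smallest possible p is 0.0005, adjusted over the 6 classes (Benjamini-Hochberg). The classes used CpGs with at least 10 reads in at least 5 of the 7 and 6 of the 9 heads (3131348 CpGs). Most of these (78.25%) had a mean proportion under 0.02, while 10651 had a mean of 0.8 or over.

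The difference was largest in points at CpGs of low and intermediate methylation. At 34048 CpGs with a mean of 0.1 to 0.2, 24 h 5-aza-dC heads averaged 14.6 ± 2.30% and sucrose heads 11.3 ± 1.15% (SD, n = 7 and 9), a difference of 3.23 points (exact permutation test, adjusted p = 0.003). At 4251 CpGs of 0.2 to 0.5, the averages were 30.4 ± 2.45% in 24 h 5-aza-dC heads and 27.7 ± 1.26% in sucrose heads, a difference of 2.63 points (exact permutation test, adjusted p = 0.00525). All 7 of the 24 h 5-aza-dC heads lay above the sucrose median in both classes, and 5 of them above every sucrose head.

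At 629098 CpGs of 0.02 to 0.1, the level was 3.87, 4.11 and 5.58% (lowest, median, highest) in 24 h 5-aza-dC heads and 2.34, 3.06 and 3.69% in sucrose heads. Here the regimes did not overlap, and the difference was 1.42 points (exact permutation test, adjusted p = 0.003). At the 10651 CpGs of 0.8 and over, 24 h 5-aza-dC heads averaged 92.3 ± 0.383% and sucrose heads 91.8 ± 0.274%, a difference of 0.598 points (exact permutation test, adjusted p = 0.003). At 3018 CpGs of 0.5 to 0.8, the averages were 68.0 ± 1.20% in 24 h 5-aza-dC heads and 67.0 ± 0.758% in sucrose heads, a difference of 1.02 points (exact permutation test, adjusted p = 0.0345). In this class heads harvested at 0 h differed by -0.09 points, while those harvested at 24 h differed by 1.66 points.

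CpGs with a mean under 0.02, which also carry cytosines left unconverted by bisulphite, were higher as well. They averaged 1.09 ± 0.664% in 24 h 5-aza-dC heads and 0.626 ± 0.250% in sucrose heads, a difference of 0.480 points (exact permutation test, adjusted p = 0.0345). The 5 deeper 24 h 5-aza-dC heads, at up to 1.74%, lay above every sucrose head (0.358 to 0.988%). Both shallow heads lay below every sucrose head, the lower of them at 0.129%. The classes were set from the same heads, and 1 methylated read in a shallow head adds more to a CpG's mean than in a deep one, so membership depends on the depth of each head. The shallow head of the 0 h harvest was also the highest of all 16 at 0.1 to 0.2 (18.9%) and at 0.2 to 0.5 (35.1%), while that of the 48 h harvest was within or near the sucrose range there. With classes set from the 18 bodies of the same regimes and harvest times, all 6 calls held (exact permutation tests, adjusted p 0.0105 to 0.047). The difference was then larger under 0.02, at 0.645 points, and smaller in the other classes, at 0.831 points at 0.02 to 0.1 and 2.11 at 0.1 to 0.2. Without both shallow heads, all 6 calls held too, and the differences were 0.778 points under 0.02 and 1.57 points at 0.5 to 0.8 (exact permutation tests, adjusted p = 0.005 and 0.015). They were smaller than with all heads at 0.1 to 0.2 and 0.2 to 0.5, at 2.76 and 2.48 points, and larger in all other classes. In the 18 bodies themselves, the same CpGs of 0.8 and over averaged 86.2 ± 1.01% after 24 h of 5-aza-dC and 85.5 ± 0.429% after sucrose (SD, n = 9 each; exact permutation test, unadjusted p = 0.03625), and the other 5 classes differed by 0.0903 to 0.823 points with unadjusted p of 0.2003 to 0.896. For 6 of these bodies the labels disagree on the harvest time (given with the bodies below), and without them the difference at 0.8 and over was 0.993 points (exact permutation test, unadjusted p = 0.02778).

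**Figure D1:**
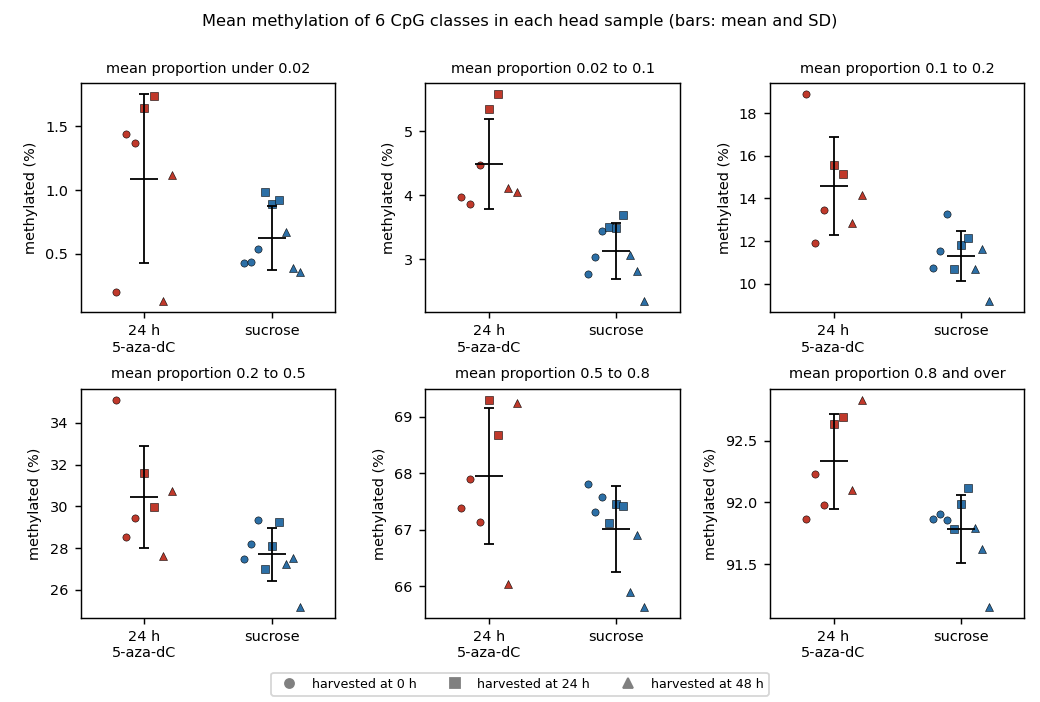
Mean methylation (%, y axis, scaled separately in each panel) of 6 CpG classes in each head sample, with 24 h 5-aza-dC heads on the left and sucrose heads on the right of each panel. Points are samples, marked by harvest time, and bars give the mean and SD. In the class of 0.02 to 0.1 all 7 of the 24 h 5-aza-dC heads lie above every sucrose head, and in the class under 0.02 both shallow heads lie far below the other 5.

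No conversion control was used here, so the part of unconverted cytosine in these differences was not tested. Each sample's level under 0.02, which moved with the regimes, was instead taken off its other classes. Removed from the unmethylated share alone, the level under 0.02 left differences of 0.966 points at 0.02 to 0.1, 2.83 at 0.1 to 0.2, 2.31 at 0.2 to 0.5 and 0.565 at 0.8 and over, each still past the threshold (exact permutation tests, adjusted p 0.0045 to 0.024), while the class of 0.5 to 0.8 was at 0.875 points with adjusted p = 0.0655. Subtracted whole, it ended the calls of the 3 classes from 0.2 upwards, with 2.16 points at 0.2 to 0.5 (adjusted p = 0.05175), 0.541 at 0.5 to 0.8 (adjusted p = 0.2802) and 0.118 at 0.8 and over (adjusted p = 0.547; exact permutation tests). At CpGs with at least 10 reads in all 16 heads, the differences of the 3 classes from 0.2 upwards no longer passed (adjusted p 0.1133 to 0.61). The calls under 0.02 and at 0.5 to 0.8 also rested on single samples. Without replicate 2 of the 48 h harvest of 24 h 5-aza-dC they were 0.315 points (adjusted p = 0.1605) and 0.487 points (adjusted p = 0.2175), and without replicate 1 of that harvest the second was 1.55 points (exact permutation tests).

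Methylation of 317 single CpGs differed between 24 h 5-aza-dC and sucrose heads, 0.629% of 50436 tested, with 230 higher (0.456%) and 87 lower (0.172%) after 5-aza-dC. Tested CpGs had at least 3 reads in all 16 heads, at least 10 reads in most, and a mean proportion of at least 0.1. This mean is over the 16 heads, while the 6 classes above used the mean of both regime means, which gives the larger regime no more weight, so counts per class differ slightly below. A quasi-binomial logistic model of methylated and unmethylated reads with a term for harvest time was used, its dispersion moderated over CpGs with limma and its p adjusted over all tested CpGs, and a CpG was called at adjusted p under 0.05. Over the 317, the absolute difference had a median of 22.26 points (lowest 4.765, highest 42.97), against a median signed difference of 2.069 points over all tested CpGs. At 298 of the 317 (94.01%) the sign was the same at all 3 harvest times, against 28.67% of all tested CpGs, though a difference averaged over harvest times selects for this. Groups did not overlap at 11 of the 317, and at 25 (0.0496%) of all tested CpGs.

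The number of calls depended on the fit and on 1 library. Without replicate 2 of the 48 h harvest of 24 h 5-aza-dC, 116 CpGs were called, 88 of them among the 317. Without both shallow heads 451 were called, the 317 among them. With reads weighted for a spread that does not shrink with depth (a beta-binomial variance), 134 were called, all among the 317, and limma on transformed proportions called 24.

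Called CpGs were concentrated at intermediate methylation and differed in direction along the scale. At means of 0.2 to 0.5, 118 of 4086 CpGs (2.888%) were called, 91 higher and 27 lower in 24 h 5-aza-dC heads. At 0.5 to 0.8, 78 of 3019 (2.584%) were called, 43 higher and 35 lower. The share was 0.2876% at 0.1 to 0.2, with 84 higher and 10 lower, and 0.2536% at 0.8 and over, with 12 higher and 15 lower. A difference of many points is possible in both directions only away from the ends of the scale.

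Called CpGs were spread over the assembly. Chromosomes 1 to 5 held 49, 41, 43, 33 and 21 of them, and unplaced sequences held 130. As a share of the CpGs tested on each, that was 0.576, 0.496, 0.547, 0.861 and 0.883% on chromosomes 1 to 5 and 0.664% on unplaced sequences. On chromosome 5, 10 were higher and 11 lower in 24 h 5-aza-dC heads, while on chromosome 3, 35 were higher and 8 lower. Joined over 200 bp, the 317 CpGs formed 258 loci, of which 38 held more than 1 called CpG, and in 36 of these 38 all called CpGs had one direction. No share over neighbouring tested CpGs stands beside this count, and 72.56% of the 317 were higher. CpGs this close come from the same pools and can lie on the same reads, so they are not independent. A methylated CpG, here one with a mean of at least 0.5, lay within 200 bp of 58.36% of called CpGs and of 28.43% of all tested CpGs. The mix of classes enters this contrast, since 32686 of the 50436 tested but 94 of the 317 called were of 0.1 to 0.2. Within classes, the shares of called and all tested CpGs were 20.21 and 2.558% at 0.1 to 0.2, and 61.02 and 36.88% at 0.2 to 0.5. They were closer at 0.5 to 0.8 (87.18 and 81.19%) and at 0.8 and over (96.3 and 89.67%).

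The 8 higher and 8 lower CpGs with the largest differences, among those with the same sign at all 3 harvest times, are named H1 to H8 and L1 to L8 in order of size. Coordinates are those of the deposited table, whose build is not given in the sources used here, and no gene was assigned to them. In each of the 16, the shallow heads contributed 3 to 20 reads, and levels of 0 or 100% in them rest on those few reads.

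H2 (chromosome 1, position 32093732) and H3 (sequence GL341022, position 428802) were the named CpGs at which the regimes did not overlap. At H2 the level was 77.1, 92.6 and 100% (lowest, median, highest) in 24 h 5-aza-dC heads and 28.6, 50 and 70% in sucrose heads. The difference was 41.94 points, with a log odds of 2.17 ± 0.401 (SE, limma-moderated quasi-binomial adjusted p = 0.0006317). At H3 the level was 50, 55.1 and 68.8% in 24 h 5-aza-dC heads and 0, 18.2 and 36.1% in sucrose heads, a difference of 39.47 points (adjusted p = 3.425e-05). After 5-aza-dC, H2 was thus near the top of the scale and H3 near its middle, each above every sucrose head in all 7 heads.

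H4 (chromosome 4, position 3791708) had the lowest adjusted p of the 16 (4.863e-06, limma-moderated quasi-binomial), with 16.7, 51.4 and 66.7% in 24 h 5-aza-dC heads and 0, 9.30 and 30.8% in sucrose heads. H6 (chromosome 1, position 2918895) had 20, 47.2 and 85.7% in 24 h 5-aza-dC heads and 0, 8.33 and 30.4% in sucrose heads. Both CpGs were thus little methylated after sucrose, and 6 of 7 heads exceeded every sucrose head after 5-aza-dC. H6 differed most at 0 h (57.5 points) and least at 48 h (16.52 points), while H4 differed least at 0 h (26.05 points) and most at 48 h (48.01 points). In the shallow heads of 0 and 48 h, 6 of 7 and 1 of 5 reads were methylated at H6, and 1 of 6 and 2 of 3 at H4. The interaction of regime and harvest time, given below, did not pass at H6 or H4 (limma-moderated quasi-binomial adjusted p = 0.808 and 0.9987).

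H1 (GL341077, position 40702) showed the largest difference of all, 42.97 points, with 37.8, 59.2 and 100% in 24 h 5-aza-dC heads and 0, 21.4 and 60% in sucrose heads (adjusted p = 0.01355, limma-moderated quasi-binomial). H7 (chromosome 1, position 12401447) had 35.7, 58.1 and 100% in 24 h 5-aza-dC heads and 0, 25.8 and 52.6% in sucrose heads. H5 (chromosome 2, position 4036181) had 61.9, 65.2 and 100% in 24 h 5-aza-dC heads and 13.0, 38.9 and 64.7% in sucrose heads. At these 3 CpGs all 7 of the 24 h 5-aza-dC heads lay above the sucrose median, but only 3 at H1, 4 at H5 and 5 at H7 lay above every sucrose head. H8 (chromosome 3, position 482548) had 18.6, 66.1 and 75% in 24 h 5-aza-dC heads and 8.33, 18.2 and 33.3% in sucrose heads, and a single 24 h harvest head lay inside the sucrose range.

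Among CpGs that fell, L4 (chromosome 3, position 4007419) was nearly unmethylated in 24 h 5-aza-dC heads, at 0, 7.69 and 25%, against 25, 45.5 and 81.2% in sucrose heads. The difference was -37.03 points (limma-moderated quasi-binomial adjusted p = 0.004007), on a median of only 13 and 11 reads per head. L2 (chromosome 3, position 26419361) had 13.0, 42.9 and 81.5% in 24 h 5-aza-dC heads and 68.4, 85.7 and 91.7% in sucrose heads. At L2 and L4, 6 of 7 heads after 5-aza-dC lay below every sucrose head.

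L1 (GL341004, position 21287) had the largest fall, -41.85 points, with 15.2, 34.6 and 76% in 24 h 5-aza-dC heads and 61.9, 80 and 100% in sucrose heads (limma-moderated quasi-binomial adjusted p = 0.001414). L3 (GL340933, position 275345) had 0, 33.3 and 40% in 24 h 5-aza-dC heads and 37.5, 64.3 and 94.1% in sucrose heads. L5 (chromosome 4, position 14462018) had 0, 38.9 and 66.7% in 24 h 5-aza-dC heads and 55, 69.0 and 97.0% in sucrose heads. In all 3 every 24 h 5-aza-dC head lay below the sucrose median. L5 and L1 differed most at the 48 h harvest, by -63.84 and -64.49 points, where the shallow head had 0 of 4 and 2 of 7 reads methylated. At neither did the interaction of regime and harvest time pass (limma-moderated quasi-binomial adjusted p = 0.7469 and 0.6561).

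L7 (GL341044, position 211617) had 15.4, 20 and 50% in 24 h 5-aza-dC heads and 40, 60 and 76.2% in sucrose heads. L8, on the same sequence at position 3171065, had 0, 13.8 and 24% in 24 h 5-aza-dC heads and 9.09, 52.9 and 75% in sucrose heads. L6 (GL340826, position 222142) had 0, 14.9 and 66.7% in 24 h 5-aza-dC heads and 33.3, 57.6 and 76.7% in sucrose heads. L6 was the only one of the 8 lower CpGs at which a 24 h 5-aza-dC head lay above the sucrose median. At the 24 h harvest, 40 of 60 and 0 of 3 reads were methylated at L6 in 24 h 5-aza-dC heads. Its sign at that harvest therefore rests on the 3 reads of replicate 2, which was not a shallow head elsewhere. The interaction of regime and harvest time did not pass at L6 (limma-moderated quasi-binomial adjusted p = 0.06391). All 16 named CpGs stayed past the threshold with the beta-binomial weighting, at adjusted p up to 0.04016 (limma-moderated quasi-binomial).

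The 16 differed in how far they rested on single samples. H2, H3, H4, H6, L4 and L7 also passed with limma on transformed proportions (adjusted p 0.01701 to 0.04345) and kept their call without any 1 of the 16 heads. With samples also centred in limma, H2 and H3 no longer passed (adjusted p = 0.06775 for each). Without replicate 2 of the 48 h harvest of 24 h 5-aza-dC, H1, H5, L1, L3, L5 and L6 no longer passed (limma-moderated quasi-binomial adjusted p 0.05769 to 0.1116), with differences of the same sign. H5 also lost its call without either 24 h harvest head of 24 h 5-aza-dC, and L6 without replicate 2 of its 0 h harvest (adjusted p 0.06578 to 0.1796). L8 lost it without replicate 3 of the 0 h harvest or either 24 h harvest head of 24 h 5-aza-dC, and without replicates 1 or 2 of the 0 h or 1 of the 48 h harvest of sucrose (adjusted p 0.05692 to 0.1226).

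**Figure D2:**
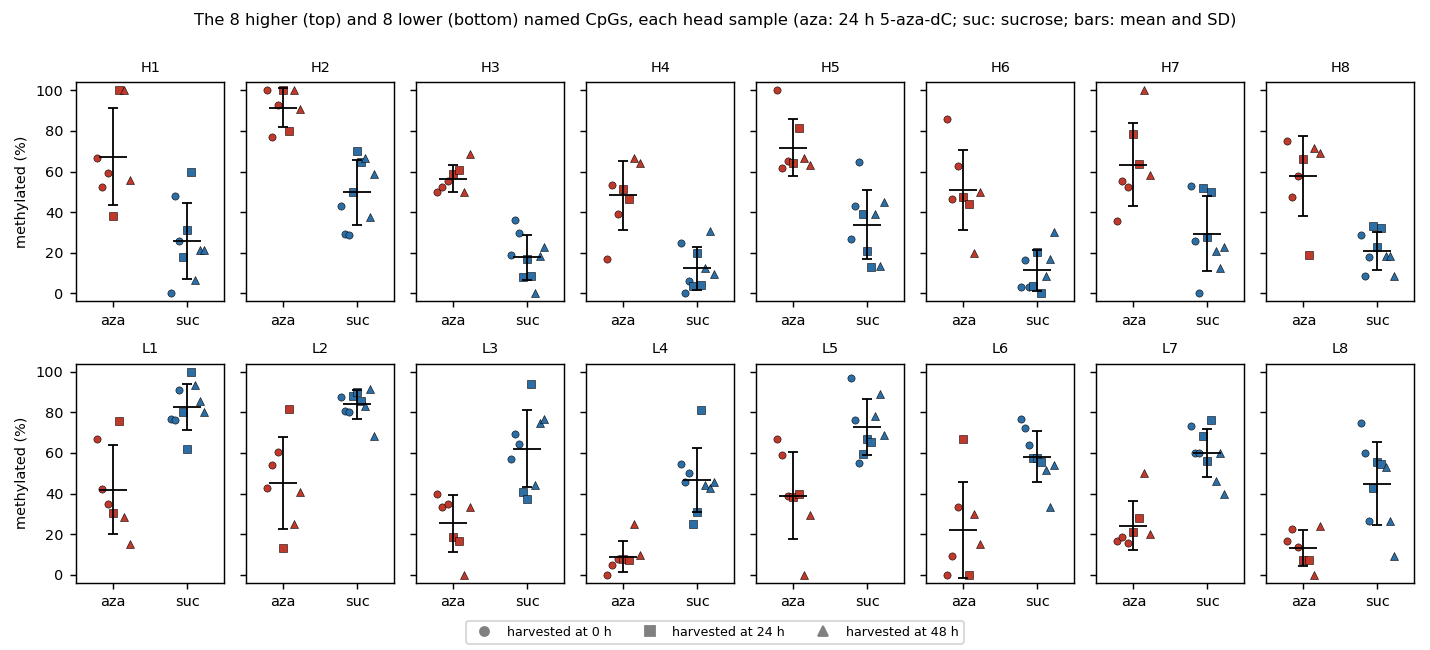
Methylation (%, y axis) of CpGs H1 to H8 (top) and L1 to L8 (bottom) in each head sample, 24 h 5-aza-dC heads left and sucrose heads right in each panel, marked by harvest time, with mean and SD. The regimes are apart at H2 and H3 and overlap at the other 14, mostly by 1 or 2 samples.

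For 5 of the 16 named CpGs the table also held reads in the 8 heads fed 5-aza-dC for 48 h, which were not part of the fit. H1 stood at 21.7 ± 18.4% (SD, n = 8) in those heads, H4 at 21.8 ± 16.7% and H6 at 34.6 ± 17.9%. L3 stood at 67.2 ± 12.6% and L7 at 21.1 ± 12.4%. The order of these means therefore put H1 and L3 near the sucrose heads (means 25.8% and 62.2%) and L7 near the 24 h 5-aza-dC heads (24.2%). H4 lay between both regimes but nearer the sucrose heads (12.3%) than the 24 h 5-aza-dC heads (48.3%). H6 also lay between the sucrose heads (11.3%) and the 24 h 5-aza-dC heads (50.9%). No test was run on these means.

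Several called CpGs lay side by side, and 5 loci held 4 or more, a set chosen after the values were seen and given without a test. All called CpGs in these 5 loci were higher in 24 h 5-aza-dC heads, though CpGs of 1 locus can lie on the same reads and are not independent. The densest (chr3:482499-482580, 82 bp, holding H8) had 7 tested CpGs, all 7 called, with differences of 18.43 to 36.67 points. With reads summed over them, the level was 16.4, 45.1 and 67.5% (lowest, median, highest) in 24 h 5-aza-dC heads and 10.0, 17.3 and 25.1% in sucrose heads, and 6 of 7 heads lay above every sucrose head. In bodies the same 7 CpGs differed by only -1.05 to 8.44 points, 5 of them with the sign of the heads. At the other loci every called CpG had the same sign in bodies.

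A locus of 142 bp on chromosome 2 (chr2:4036172-4036313, holding H5) had 4 of 6 tested CpGs called. Its summed level was 43.3, 50 and 66.0% in 24 h 5-aza-dC heads and 16.0, 23.8 and 37.4% in sucrose heads, without overlap. A locus of 220 bp on chromosome 1 (chr1:20613575-20613794) had 6 of 9 tested CpGs called, and its level was 0, 30.7 and 53.8% in 24 h 5-aza-dC heads and 5.83, 12.5 and 23.1% in sucrose heads. One 24 h 5-aza-dC head there lay below all sucrose heads while 5 lay above all of them. The 2 loci on unplaced sequences (GL340987 from 141579 to 141610, and GL341382 from 138458 to 138466) overlapped more, with 4 and 2 of the 7 heads above every sucrose head.

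Bodies (thorax and abdomen) of the same regimes gave a second measurement, in 18 samples that the head fit did not use. For 6 of these bodies, and for none of the heads, the title in the labels gave another harvest time than the characteristics (5) or gave none (1). The characteristics were used, and values without these 6 are given beside the results. The sign of the body difference matched that of heads at 292 of the 317 called CpGs (92.11%), against 54.17% of all tested CpGs. The median body difference was 12.01 points at CpGs higher in heads and -14.18 points at CpGs lower in heads, against 0.1937 points over all tested CpGs. The median head difference was 21.6 and -23.1 points in the same CpGs, but these were selected on it. Of the 317, 52 (16.4%) also passed in bodies, all 52 with the same sign, against 135 (0.268%) of all tested CpGs in bodies. Without the 6 bodies of unclear harvest time, the sign matched at 287 of the 317 (90.54%, against 54.56% of all tested CpGs), and 28 passed in bodies, all 28 with the same sign, against 79 (0.1566%) of all tested CpGs.

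All 16 named CpGs had the same sign in bodies. L5 stood at 41.2 ± 11.1% in 24 h 5-aza-dC bodies and 67.8 ± 18.7% in sucrose bodies (SD, n = 9 each; limma-moderated quasi-binomial adjusted p = 0.0007215). H6 stood at 39.4 ± 14.7% in 24 h 5-aza-dC bodies and 15.0 ± 14.8% in sucrose bodies (adjusted p = 0.01162), and H3 at 46.1 ± 20.8% and 16.9 ± 14.2% in the same order (adjusted p = 0.07756). H5 and H8 differed by 6.36 and 4.18 points in bodies, with adjusted p of 0.9131 and 0.8698. Body differences at the named CpGs were thus all in the head's direction, and those of 4 of them (H6, L2, L5 and L6) passed over all CpGs in bodies. Without the 6 bodies of unclear harvest time, the signs were unchanged, H4, H6 and L2 passed (adjusted p 0.02892 to 0.04641), and L5 and L6 did not (adjusted p = 0.2971 and 0.3004; limma-moderated quasi-binomial).

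**Figure D3:**
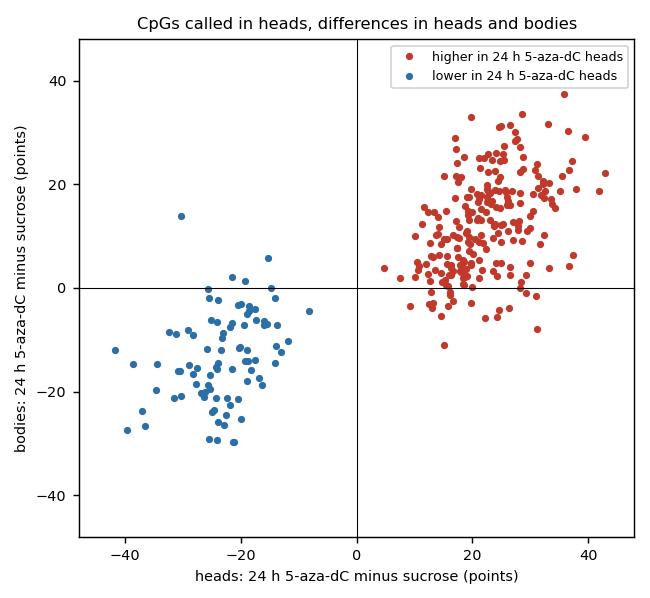
Difference between 24 h 5-aza-dC and sucrose (points) in heads (x axis) and in bodies (y axis) for the 317 CpGs called in heads, coloured by the direction in heads. Points fall in the upper right and lower left parts at 292 of 317 CpGs, and at 44 of 317 the body difference is larger in size than the head difference.

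Heads and bodies were not shown to be separate sets of wasps. Over 7105 CpGs of 0.2 to 0.8, deviations of heads and bodies of the same regime and harvest time correlated across CpGs at r = 0.136 to 0.163 for 24 h 5-aza-dC and 0.366 to 0.509 for sucrose. For different harvest times r lay between -0.107 and -0.0469 for 24 h 5-aza-dC and between -0.31 and -0.0323 for sucrose, a range pushed below 0 because deviations within a regime sum to 0. Without the 6 bodies of unclear harvest time, the same harvest time gave r = 0.0478 to 0.151 for 24 h 5-aza-dC and 0.297 to 0.44 for sucrose, and different times gave -0.0842 to 0.0203 and -0.296 to -0.0451 in the same order. The labels do not say whether a head pool and a body pool came from the same females, and what heads and bodies of 1 combination share was not tested. With the 6 combinations of regime and harvest time as the units of the fit, 290 CpGs were called in heads, 227 of them among the 317.

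The difference between regimes was not shown to depend on tissue at any CpG. The quasi-binomial interaction of regime and tissue passed at 0 of 50436 CpGs, where 3516 had an unadjusted p under 0.05, and limma on transformed proportions also passed 0, where 2971 had one. Without the 6 bodies of unclear harvest time the quasi-binomial interaction also passed at 0, where 3100 had an unadjusted p under 0.05. No difference is therefore called particular to heads.

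Most runs of methylated CpGs differed by few points between the regimes. Neighbouring CpGs with a mean of at least 0.5, joined over at most 200 bp into runs of at least 5, made 932 clusters with a median of 7 CpGs, 242.5 bp and 187 reads per sample, holding 7308 of the 14714 methylated CpGs. The median difference over clusters was 0.61 points, and 860 of 932 (92.3%) differed by less than 5 points. By the same limma-moderated quasi-binomial model, 9 clusters (0.966%) were called, 5 higher (C1 to C5, 0.536%) and 4 lower (C6 to C9, 0.429%) in 24 h 5-aza-dC heads. Without replicate 3 of the 0 h harvest of 24 h 5-aza-dC, 21 were called, and with the 6 combinations as units 4 were.

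The largest rise was at C1 (ChrUn_1737, 4924 to 4995), where 5 CpGs together had 84.6, 95.1 and 97.9% (lowest, median, highest) in 24 h 5-aza-dC heads and 64.8, 77.9 and 93.6% in sucrose heads. The difference was 15.9 points (limma-moderated quasi-binomial adjusted p = 0.003012). C2 (chr2:24965076-24965258) had 57.7, 67.4 and 71.0% in 24 h 5-aza-dC heads and 43.0, 53.2 and 66.4% in sucrose heads. In both, 4 of 7 heads lay above every sucrose head and all 7 above the sucrose median. C3, C4 and C5, on GL341021 (36230 to 36407), GL341382 (138270 to 138509) and GL340839 (67338 to 67913), differed by 6.70, 6.50 and 3.71 points, with levels above 75% in nearly all samples.

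C6 (ChrUn_0397, 15066 to 15311) showed the largest fall, with 46.5, 66.7 and 93.6% in 24 h 5-aza-dC heads and 79.5, 90.7 and 94.9% in sucrose heads, a difference of -19.6 points (limma-moderated quasi-binomial adjusted p = 0.002376). The difference was -33.3 points at the 48 h harvest and -7.02 at the 24 h one, but the interaction of regime and harvest time did not pass (limma-moderated quasi-binomial adjusted p = 0.3742). C7 (GL341004, 21284 to 21450), which holds L1, had 68.2, 74.3 and 91.3% in 24 h 5-aza-dC heads and 86.8, 90.6 and 95.5% in sucrose heads. In C7, 6 of 7 heads lay below every sucrose head and the remaining one lay within the sucrose range. C8 (chr2:5524903-5525095) and C9 (chr2:21715120-21715611) fell by 13.4 and 10.7 points.

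Of these 9, C1 and C6 also passed in bodies, where 5 of 932 clusters (0.536%) did. C1 stood at 88.5 ± 4.79% in 24 h 5-aza-dC bodies and 71.2 ± 10.5% in sucrose bodies, and C6 at 68.4 ± 15.6% and 89.2 ± 5.22% in the same order (SD, n = 9 each). The sign matched in bodies at all 9, against 60.4% of all clusters. C1 and C6 also passed without the 6 bodies of unclear harvest time (adjusted p = 0.01859 and 0.03671, limma-moderated quasi-binomial).

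**Figure D4:**
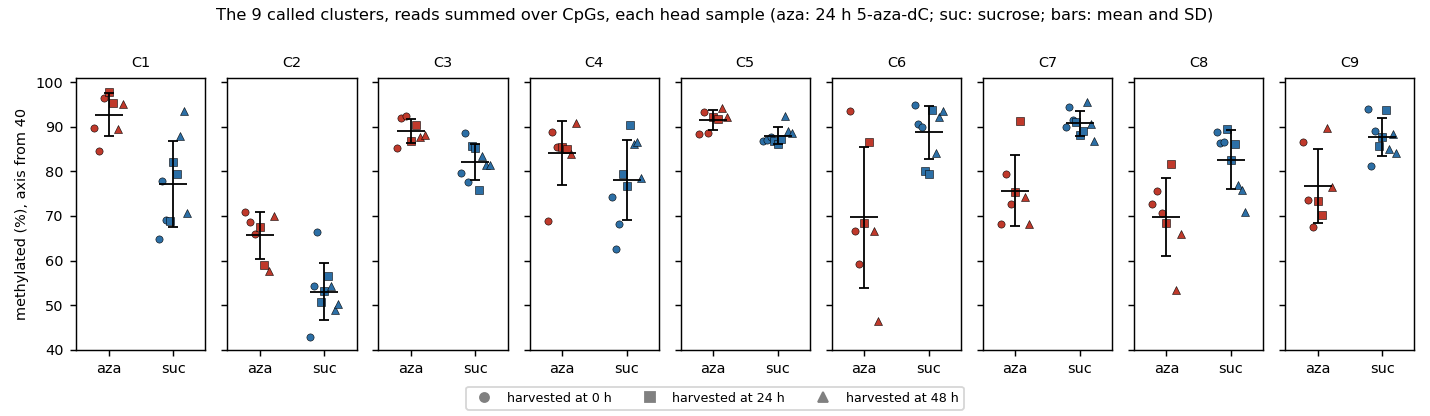
Methylation (%, y axis from 40) of clusters C1 to C9 in each head sample, 24 h 5-aza-dC heads left and sucrose heads right, marked by harvest time, with mean and SD. C1 to C5 are higher and C6 to C9 lower in 24 h 5-aza-dC heads, and at least 1 of the 24 h 5-aza-dC heads lies within the sucrose range in each.

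At a small number of CpGs the difference varied between harvest times. The test weighs this against the spread between pools of 1 combination of regime and harvest time. Time since feeding can therefore not be told apart from anything else that the pools of 1 combination share. In the same quasi-binomial model, the interaction of regime and harvest time passed at 39 CpGs (0.0773%), and 3685 had an unadjusted p under 0.05. Limma on transformed proportions passed 0, and 2158 had an unadjusted p under 0.05. Of the 39, 0 were among the 317, which made up only 0.629% of all tested CpGs. At all 39 the sign of the difference changed between harvest times, as the test selects for, while 28.67% of all tested CpGs kept 1 sign. The difference was largest at 48 h in 26 of the 39, at 24 h in 7 and at 0 h in 6. The same split over all tested CpGs was not computed. The 48 h harvest also holds the shallowest head, at 5.24 reads per CpG, where single levels are least precise. No pattern over time is therefore read from these counts. Interaction p-values under 0.05 were more frequent at CpGs of 0.2 to 0.5 (14.56%) and 0.5 to 0.8 (14.57%) than at those of 0.1 to 0.2 (6.189%) and 0.8 and over (5.89%).

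The 3 CpGs with the lowest interaction p (T1 to T3) are given as examples. At T2 (GL341020, position 173945), 24 h 5-aza-dC heads averaged 43.6, 51.0 and 66.4% at 0, 24 and 48 h, and sucrose heads 69.0, 63.2 and 7.64% (interaction adjusted p = 0.001817, limma-moderated quasi-binomial). At T3 (chromosome 3, position 24527665), the averages were 42.0, 61.9 and 56.5% in 24 h 5-aza-dC heads and 75.8, 57.4 and 7.64% in sucrose heads. At both, the sucrose heads harvested at 48 h stood apart from all other heads. At T1 (GL340840, position 882738), 24 h 5-aza-dC heads averaged 43.4, 22.9 and 2.56% and sucrose heads 3.79, 38.7 and 60.7%, so that the regimes ran in opposite directions over time.

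**Figure D5:**
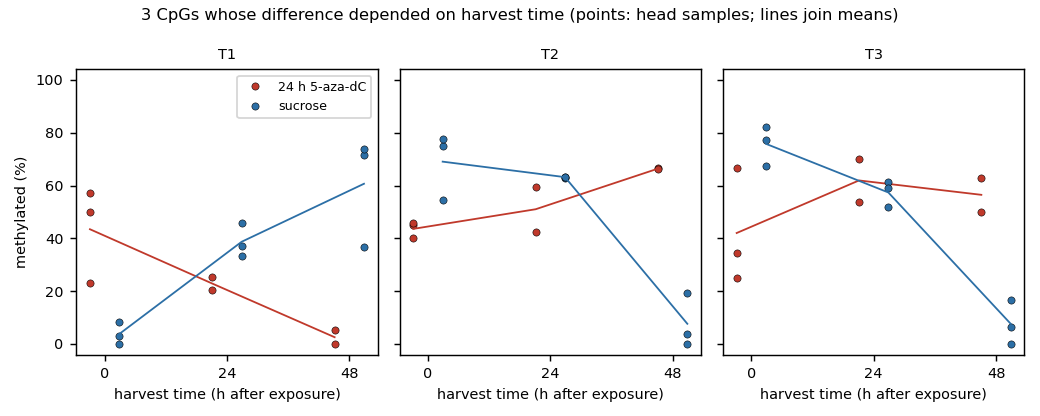
Methylation (%, y axis) by harvest time (0, 24 and 48 h, x axis) at CpGs T1 to T3, with 24 h 5-aza-dC heads drawn left of sucrose heads at each time, points for samples and lines through the means. At T2 and T3 the sucrose heads harvested at 48 h average 7.64%.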

How the data were processed

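Genomic DNA of heads was bisulphite-converted (EZ DNA Methylation kit) made into TruSeq libraries and sequenced as paired Illumina reads, per the labels' protocols. The submitters' processing notes name cutadapt 1.12, Bismark 0.16, Bowtie2, SAMtools, methylKit 0.99.3 and R 3.3.1. The genome build, filters and handling of duplicate reads are not given in the sources used here. The authors deposited, for each CpG and sample, a methylated read count and a total read count, not normalized, with at least 3 reads in every sample of a regime or none in any. Conversion cannot be told apart from low methylation at single CpGs, and intervals from reads would cover counting error only.

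From these, proportions were computed, and the models and exact permutation tests described above were run with R 4.3.3, limma 3.58.1, Python 3.11.15 and numpy 2.4.6. The model code was tested on simulated data. Regimes, tissues and harvest times were taken from the characteristics in the labels, and replicate numbers follow accession order. Titles disagree with these for 5 of 18 bodies and name no harvest time for 1. At most 4.385% of 100000 CpGs had identical counts between heads of 1 combination, and at most 7.975% between heads of different combinations, so none was treated as a repeat.

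The comparison and its lists were chosen with earlier results of these data known. Named CpGs are the 8 higher and 8 lower with the largest difference among those called with 1 sign at 3 harvest times, and clusters up to 5 in each direction by the same rule. Alternatives were other coverage and methylation filters, limma on transformed proportions, no harvest term, each head left out and each harvest time alone. Weighted fits, combinations as units, a pooled-read filter, both shallow heads left out, bodies of unclear harvest time left out and background removed from the unmethylated share were added after seeing the data. A test of genes was not run, since no annotation of the build was used here.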

Additional observations from a re-analysis of the deposited data

Results flagged for a closer look

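A sample far from the rest of its group was found in 5 of 62 groups examined (by the gap to its nearest neighbour over the group's range), and chance alone gives about 1 in 20. At L4, the shallow 24 h 5-aza-dC head of the 48 h harvest reached 25% (1 of 4 reads), and at L7 the same head reached 50% (2 of 4 reads). At L2, the lowest sucrose head was at 68.42%. In cluster C4, the lowest 24 h 5-aza-dC head, the shallow one of the 0 h harvest, was at 68.87% (73 of 106 reads). In cluster C5 the highest sucrose head was at 92.49%. The difference between 24 h 5-aza-dC and sucrose heads varied between harvest times at 39 CpGs, by the quasi-binomial interaction test, as given above, and the cause was not tested.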

How the results depend on the processing

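Against 317 CpGs called, the quasi-binomial model called 6 at 10 reads in all 16 heads (1158 tested), 210 at a mean of at least 0.02, 11, 0 and 10 at harvest 0, 24 and 48 h alone (4162 at an unadjusted p under 0.05 at 24 h), and 134 with beta-binomial weighting, or 50 without replicate 2 of the 48 h harvest of 24 h 5-aza-dC in addition. Limma on transformed proportions called 24, and 14 with samples centred. Leaving out each head gave 116 to 416 CpGs and 6 to 21 clusters, and leaving out both shallow heads 451 CpGs and 12 clusters. Against 9 clusters, 4 were called with the 6 combinations as units, 23 with CpGs joined over 500 bp, 3 with limma and 0 with CpGs of a mean of at least 0.8 (67 of 680 at an unadjusted p under 0.05). Against 39 CpGs with a harvest interaction, limma called 0 (2158 at an unadjusted p under 0.05). The class differences with 10 reads in all heads were 2.05 points at 0.2 to 0.5, 0.432 at 0.5 to 0.8 and 0.269 at 0.8 and over. With background subtracted whole they were 2.16, 0.541 and 0.118 points, so that these 3 classes lost their calls under both, and with it removed from the unmethylated share 0.875 points at 0.5 to 0.8, also not called. At 0 h alone the class of 0.5 to 0.8 was reversed, at -0.0933 points, and that of 0.8 and over was 0.149 points, against 0.945 at 48 h. Leaving out each head, differences ranged from 0.315 to 0.644 points under 0.02, 1.36 to 1.48 at 0.02 to 0.1, 2.54 to 3.71 at 0.1 to 0.2, 1.96 to 3.16 at 0.2 to 0.5, 0.487 to 1.55 at 0.5 to 0.8 and 0.476 to 0.719 at 0.8 and over. The call under 0.02 was lost without replicate 2 or 3 of the 0 h, 2 of the 24 h or 2 of the 48 h harvest of 24 h 5-aza-dC, and without 2 of the 0 h or 3 of the 48 h harvest of sucrose. That at 0.5 to 0.8 was lost without replicate 2 of the 0 h, either of the 24 h or 2 of the 48 h harvest of 24 h 5-aza-dC, and without 2 of the 0 h, any of the 24 h or 1 or 3 of the 48 h harvest of sucrose. The other 4 calls were kept without each head. No named CpG was reversed under any alternative. The causes were not tested. No paired analysis was possible because replicate numbers follow accession order. A count model with a term for each sample and a test of genes were not run. In a shallow head, 3 to 20 reads per named CpG limit each level.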
